A study of Mus musculus with 4 samples.

Results

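The 9 late granule genes of neutrophils, picked out of the tables by gene name, were S100a8, S100a9, Ltf, Camp, Ngp, Lcn2, Mmp8, Mmp9 and Padi4. They were 9 of the 22011 genes in the deposited tables of RNA sequencing of mouse fetal liver cells. The study compared mice labelled hnRNP L -/- (KO, n = 2 libraries) with wild-type mice (WT, n = 2 libraries). hnRNP L, encoded by Hnrnpl, binds RNA and regulates alternative splicing. The labels mention C57BL/6, LckCre transgenic, ROSA26 reporter and CD45.1 mice as bought or housed, without saying which of them gave these samples. The sources used here give neither the kind of deletion, a Cre driver for these samples, the embryonic age nor the litters.

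Neutrophils make their granules in sequence as they mature. Primary granules with myeloperoxidase and serine proteases come first, in promyelocytes. Secondary, or specific, granules with lactoferrin and cathelicidin follow in myelocytes and metamyelocytes, and gelatinase granules come last. Transcription of the secondary granule genes depends on C/EBP epsilon. Before birth most blood cells form in the fetal liver, where granulocytes are a minority beside erythroblasts. The gene group used here is wider than the secondary granule: S100A8 and S100A9 lie mostly in the cytosol, MMP9 is the marker of gelatinase granules, and PADI4 is an enzyme that acts in the nucleus.

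Promoter windows are shown for 3 of the genes that were higher in KO and for Camp, which did not pass and is related to Ngp. A window of 250 bases before the annotated start was found for 8 of the 9 genes in the RefSeq table of build GRCm38.p6. The gene without a window was Mmp9. Capitals mark matches to TTGCNNAA, the core letters of a C/EBP site, on either strand. Each window is written 5′ to 3′ on the strand of its gene.
Ltf, chr9:111019042-111019291, plus strand: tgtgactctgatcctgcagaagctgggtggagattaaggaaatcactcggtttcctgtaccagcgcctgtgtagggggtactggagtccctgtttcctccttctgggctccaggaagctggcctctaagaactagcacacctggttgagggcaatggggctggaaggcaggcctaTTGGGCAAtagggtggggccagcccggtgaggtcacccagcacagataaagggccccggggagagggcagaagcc
Ngp, chr9:110419558-110419807, plus strand: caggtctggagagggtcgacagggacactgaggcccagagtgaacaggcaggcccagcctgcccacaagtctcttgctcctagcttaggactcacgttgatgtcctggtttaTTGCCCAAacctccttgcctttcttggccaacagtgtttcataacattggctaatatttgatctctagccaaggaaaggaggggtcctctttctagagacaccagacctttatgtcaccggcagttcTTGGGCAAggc
Lcn2, chr2:32387740-32387989, minus strand: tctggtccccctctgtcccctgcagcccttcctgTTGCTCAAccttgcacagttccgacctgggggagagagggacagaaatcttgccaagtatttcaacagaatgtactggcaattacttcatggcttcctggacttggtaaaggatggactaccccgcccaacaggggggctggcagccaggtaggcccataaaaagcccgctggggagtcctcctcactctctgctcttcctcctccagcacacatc
Camp, chr9:109849457-109849706, minus strand: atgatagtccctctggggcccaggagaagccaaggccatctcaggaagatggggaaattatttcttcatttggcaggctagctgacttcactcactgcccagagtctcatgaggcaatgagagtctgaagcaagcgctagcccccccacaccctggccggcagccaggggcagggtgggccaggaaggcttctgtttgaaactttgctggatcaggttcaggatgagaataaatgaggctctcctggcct

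The Ltf window held 1 match, 75 to 68 bases before the start. The Ngp window held 2, at 138 to 131 and at 11 to 4 bases before the start. The Lcn2 window held 1, at 216 to 209 bases before the start, and the Camp window held none. Of the 8 windows, 5 had a match (Ltf, Ngp, Lcn2, S100a9 and Mmp8), against 9.56% of all 32851 windows of the same length in the table. An ETS core (AGGAAGT, either strand) was in 2 of the 8 windows, those of S100a8 and Mmp8, against 7.69% of all windows. A match is a run of letters and was not tested as a site.

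The libraries held 97490949 and 96260423 mapped reads in KO replicates 1 and 2, and 70020061 and 111324295 in WT replicates 1 and 2. Hnrnpl had 279.6 and 269 CPM in KO (counts per 1000000 reads on TMM-scaled library sizes), against 459.6 and 603 CPM in WT. Its level was 0.516 of WT (edgeR quasi-likelihood test, adjusted p = 0.0114). Markers of erythroblasts and hepatocytes were present at high levels in all 4 libraries, which matches the tissue label. KO replicate 2 had 2839 reads of the Y-linked gene Ddx3y and the other libraries 5 to 14, so that replicate was male. Actc1, cardiac actin, was at 1.50 and 3.18 CPM in KO against 18.3 and 135 CPM in WT.

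Of the 9 genes, 4 rose in KO and none fell: Mmp9, Ltf, Lcn2 and Ngp. The other 5 had fold changes above 1 but did not pass the test. All 9 had passed the filter on low counts. Over all 15028 genes tested, 11.4% were called higher in KO at an adjusted p under 0.05, the threshold used throughout, and 9.44% lower, 20.8% in all. The median log2 fold change of the 9 genes was 0.80, beside 0.02 for all tested genes. Both KO libraries lay above both WT libraries for 7 of the 9 genes, by little for Camp, against 33.5% of all tested genes. For none of the 9 did both KO libraries lie below both WT libraries, against 31.7% of all tested genes. In bulk RNA, more neutrophils, more RNA in each neutrophil and a smaller share of RNA from other cells cannot be told apart. The same holds for RNA of these genes from other cells. The summed erythroblast markers were at 24095 and 18000.4 CPM in KO, against 40124 and 36524 CPM in WT.

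**Figure D1:**
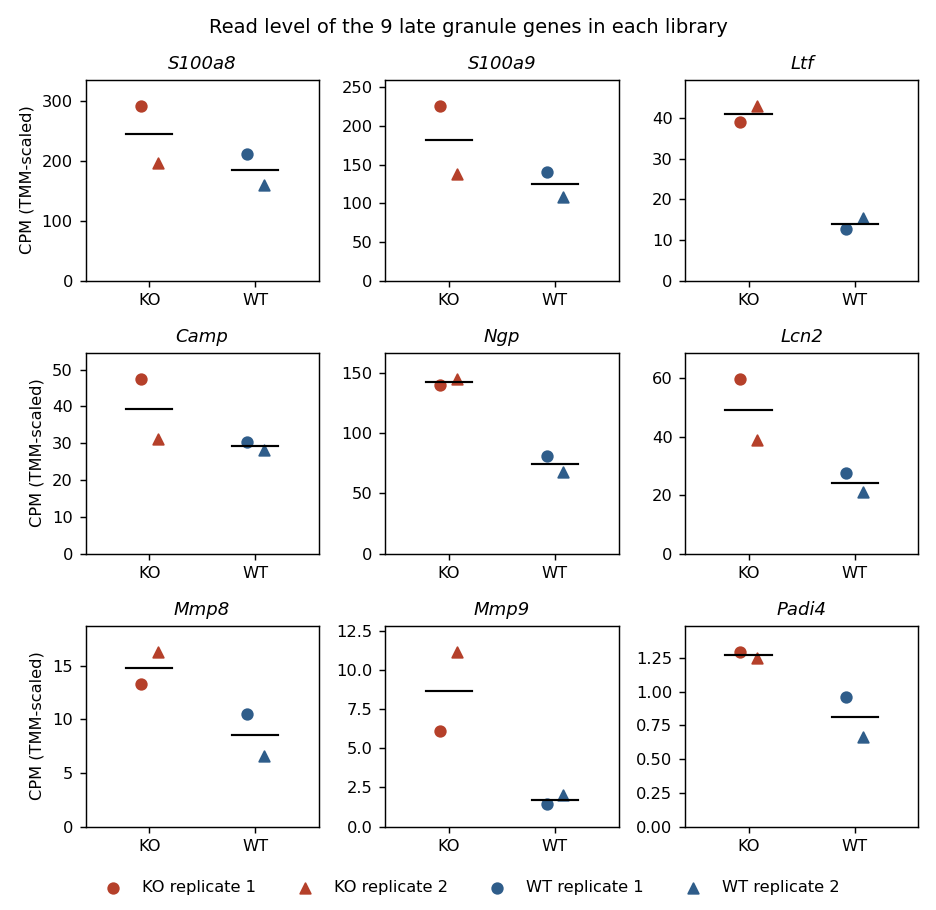
CPM of each of the 9 genes in the 2 KO libraries (left) and the 2 WT libraries (right) on a linear axis from 0, with a scale of its own in each panel; points are libraries and bars are group means. KO and WT points overlap in range for S100a8 and S100a9. For Camp, KO replicate 2 (31.0 CPM) is nearly level with WT replicate 1 (30.3 CPM), and in the other panels the groups are apart. KO replicate 1 is the highest library for S100a8, S100a9, Camp, Lcn2 and, by little, Padi4.

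Ltf encodes lactoferrin, the iron-binding protein of secondary granules (chromosome 9, 110921796 to 110945270, plus strand, in the coordinates of the files, whose build the sources used here do not give). It had 39.1 and 43.0 CPM in KO replicates 1 and 2, against 12.7 and 15.3 CPM in WT replicates 1 and 2. The groups did not overlap, and the lower KO library was above the higher WT library by more than the range within either group. Means were 41.1 ± 2.80 CPM in KO and 13.98 ± 1.87 CPM in WT (SD, n = 2 each). Ltf rose 2.93-fold (log2 fold change 1.55, SE 0.14, edgeR adjusted p = 0.00446). The call held with any 1 library left out, with log2 fold changes of 1.42 to 1.70 and edgeR adjusted p of at most 0.0150.

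Ngp encodes neutrophilic granule protein, a relative of the cathelicidins (chromosome 9, 110322312 to 110325516, plus strand). Its level was 140.1 and 145 CPM in the KO libraries, against 81.3 and 67.5 CPM in the WT libraries. The 2 KO libraries were close to each other and well above both WT libraries. With means of 143 ± 3.76 CPM in KO and 74.4 ± 9.74 CPM in WT (SD, n = 2 each), Ngp rose 1.92-fold (log2 fold change 0.94, SE 0.12, edgeR adjusted p = 0.00716). It too passed with any 1 library left out, at log2 fold changes of 0.81 to 1.08.

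Camp encodes cathelicidin, the precursor of an antimicrobial peptide, and lies on the same chromosome (9, 109749891 to 109751970, minus strand). Its CPM was 47.5 and 31.0 in KO, against 30.3 and 28.2 in WT. KO replicate 1 stood above the rest, while KO replicate 2 was close to both WT libraries. The log2 fold change was 0.42 (SE 0.19, edgeR adjusted p = 0.158). Without KO replicate 1 it was 0.08. The ratio of Ngp to Camp in RPKM, reads per kilobase of transcript per 1000000 mapped reads, was 1.52 and 2.42 in KO, against 1.38 and 1.23 in WT.

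Lcn2 encodes lipocalin 2, which binds bacterial siderophores and so withholds iron (chromosome 2, 32240157 to 32243259, minus strand). It is a secondary granule protein, and hepatocytes also make it in the acute phase response. Lcn2 had 59.7 and 38.8 CPM in KO, against 27.4 and 20.9 CPM in WT. The groups did not overlap, though KO replicate 1 was 1.54 times KO replicate 2. Means were 49.2 ± 14.8 CPM in KO and 24.2 ± 4.59 CPM in WT (SD, n = 2 each), and Lcn2 rose 2.04-fold (log2 fold change 1.03, SE 0.22, edgeR adjusted p = 0.0203). With WT replicate 2 left out it did not pass (log2 fold change 0.84, edgeR adjusted p = 0.0700).

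Mmp9 encodes gelatinase B, a matrix metalloproteinase stored in gelatinase granules and also made by macrophages (chromosome 2, 164773751 to 164781346, plus strand). It had 292 and 571 reads in KO and 46 and 111 reads in WT. These were 6.10 and 11.1 CPM in KO, against 1.42 and 2.00 CPM in WT. Both KO libraries were far above both WT libraries, and they also differed from each other, with replicate 1 at 0.548 of replicate 2. Mmp9 rose 4.97-fold (log2 fold change 2.31, SE 0.34, edgeR adjusted p = 0.00853). Its fold change was the largest of the 9 and higher than that of 99.6% of all tested genes. Leaving out 1 library gave log2 fold changes of 1.82 to 2.68, all past the threshold.

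Mmp8 encodes the neutrophil collagenase of secondary granules (chromosome 9, 7558429 to 7568486, plus strand). It had 13.3 and 16.3 CPM in KO, against 10.5 and 6.55 CPM in WT. The groups did not overlap, but WT replicate 1 was closer to KO replicate 1 than to WT replicate 2. Mmp8 missed the threshold narrowly (log2 fold change 0.80, SE 0.24, edgeR adjusted p = 0.0517). Without WT replicate 1 it passed (log2 fold change 1.17, edgeR adjusted p = 0.0223). The RPKM of Mmp8 was 2.79 and 1.87 times that of Mmp9 in KO, and 9.431 and 4.196 times in WT.

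S100a8 and S100a9 encode the 2 subunits of calprotectin, a calcium- and zinc-binding protein that fills the neutrophil cytosol. They are neighbours on chromosome 3 (90472993 to 90473956, plus strand, and 90496555 to 90499613, minus strand). S100a8 was at 292 and 197 CPM in KO, against 212 and 159 CPM in WT. S100a9 had 226 and 138 CPM in KO, against 141 and 108 CPM in WT. For both genes KO replicate 1 was highest, and KO replicate 2 lay below WT replicate 1, so the groups overlapped. The log2 fold change was 0.40 for S100a8 (SE 0.21, edgeR adjusted p = 0.211) and 0.55 for S100a9 (SE 0.23, edgeR adjusted p = 0.127). S100a9 passed without KO replicate 2 (log2 fold change 0.86, edgeR adjusted p = 0.0399), and so did Camp (0.70, edgeR adjusted p = 0.0379). S100a8 to S100a9 ratios in RPKM were 1.61 and 1.77 in KO, against 1.87 and 1.83 in WT.

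Padi4 encodes peptidylarginine deiminase 4, which citrullinates histones when neutrophils release their chromatin as traps (chromosome 4, 140301423 to 140330118, minus strand). With 62 and 64 reads in KO and 31 and 37 reads in WT it was the least abundant of the 9. Its level was 1.30 and 1.25 CPM in KO, against 0.960 and 0.666 CPM in WT. The groups did not overlap, and the difference did not pass (log2 fold change 0.66, SE 0.38, edgeR adjusted p = 0.246).

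**Figure D2:**
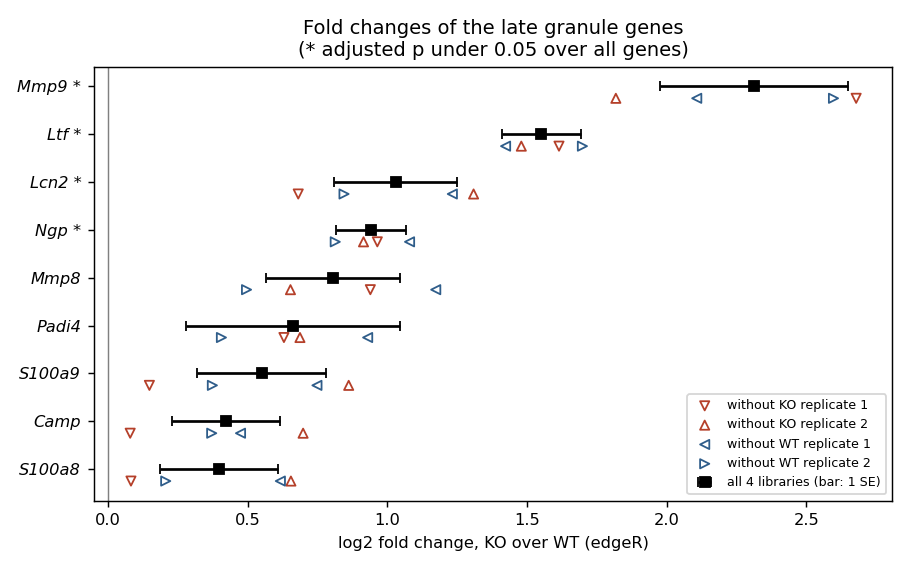
Log2 fold changes of KO over WT from all 4 libraries (squares, bars of 1 SE) and with each library left out (open triangles). Ltf and Ngp move little with any library, while S100a8, S100a9 and Camp are close to 0 without KO replicate 1.

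Per transcript length, the order of the 9 genes was the same in each of the 4 libraries. S100a8 came first, with 365 and 267 RPKM in KO, against 249 and 202 RPKM in WT. It was followed by S100a9, Ngp, Camp, Lcn2, Ltf, Mmp8, Mmp9 and Padi4, the last at 0.241 and 0.252 RPKM in KO and 0.168 and 0.126 RPKM in WT. Camp (38.9 and 27.6 RPKM in KO) and Lcn2 (34.4 and 24.2 RPKM in KO) overlapped across the KO libraries. Every other pair of neighbours was apart within each group. S100a8 and S100a9 made up 80.5% and 75.9% of the summed RPKM of the 9 genes in KO, against 83.6% and 81.9% in WT.

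The 2 KO libraries did not differ in one direction over the 9 genes. In CPM, KO replicate 1 was 1.48 to 1.63 times KO replicate 2 for S100a8, S100a9, Camp and Lcn2. It was at 0.548 to 0.963 of KO replicate 2 for Ltf, Ngp, Mmp8 and Mmp9, and at 1.04 for Padi4. WT replicate 1 was at 0.713 to 1.60 of WT replicate 2. KO replicate 2 was the male library, and the part of sex in these differences was not tested.

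Reads across known splice junctions gave a second count of the same genes, limited to spliced RNA. In this count 5 of the 9 genes were higher in KO and none was lower, against 6.19% of 11247 genes called higher and 4.4% lower. The 5 were Mmp9, Ltf, Ngp, Lcn2 and S100a9. Mmp9 had 41 and 56 junction reads in KO, against 2 and 8 in WT (log2 fold change 3.14, SE 0.60, edgeR adjusted p = 0.00642). Ltf had 336 and 491 in KO, against 82 and 204 in WT (log2 fold change 1.43, SE 0.23, edgeR adjusted p = 0.00247). Ngp had 462 and 493 in KO, against 145 and 240 in WT (log2 fold change 1.16, SE 0.18, edgeR adjusted p = 0.00246). In these 3 genes the direction and the call were those of the transcript reads.

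S100a9 had 308 and 305 junction reads in KO, against 117 and 185 in WT. On the TMM-scaled junction totals this was 44.1 and 40.7 reads per 1000000 in KO, against 24.9 and 21.9 in WT. For S100a9 the KO libraries were thus close to each other in spliced reads and 1.63-fold apart in transcript reads. This was not so for S100a8, which had 2882 and 1949 junction reads in KO, against 1086 and 1853 in WT. On the same scale these were 413 and 260 in KO, against 231 and 219 in WT. S100a8 did not pass in junction reads (log2 fold change 0.58, SE 0.19, edgeR adjusted p = 0.0707). S100a9 rose in junction reads (log2 fold change 0.86, SE 0.20, edgeR adjusted p = 0.0161), which missed the threshold when WT replicate 2 (edgeR adjusted p = 0.0566) or KO replicate 1 (edgeR adjusted p = 0.053) was left out. Lcn2 (log2 fold change 0.90, edgeR adjusted p = 0.0375) did not pass with WT replicate 2 (edgeR adjusted p = 0.193) or KO replicate 2 (edgeR adjusted p = 0.133) left out. Without WT replicate 2, 3 of the 9 genes passed. Camp had 110 and 56 junction reads in KO, against 37 and 66 in WT, and did not pass (log2 fold change 0.56, edgeR adjusted p = 0.359), with a fold change just below 1 without KO replicate 1. Padi4 had 18 and 16 in KO, against 4 and 3 in WT, too few to pass (log2 fold change 2.05, SE 0.81, edgeR adjusted p = 0.121).

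**Figure D3:**
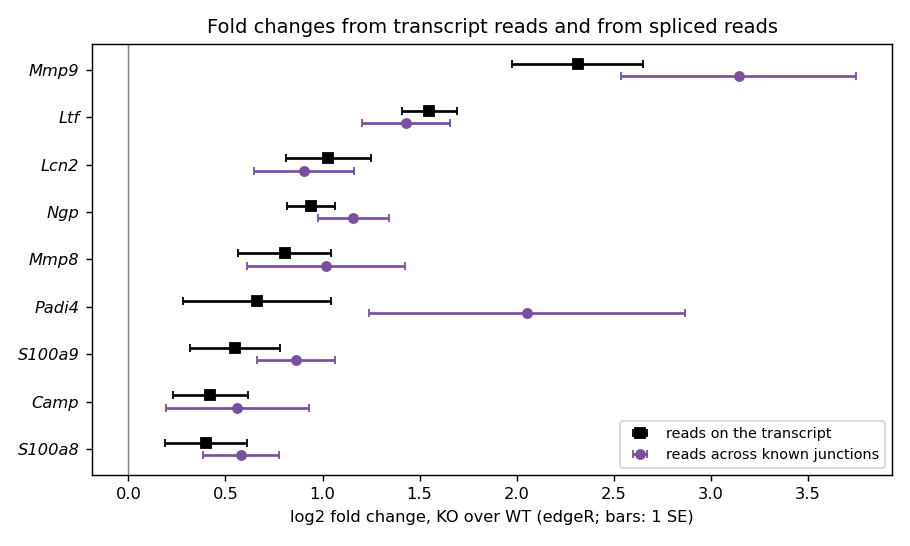
Log2 fold changes of KO over WT for each gene from reads on the transcript (squares) and from reads across its known junctions (circles), with bars of 1 SE. Both counts put every gene above 0, and the junction bars are widest for Padi4 and Mmp9, which had the fewest junction reads.

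Junction usage, the share of a gene's junction reads that 1 junction takes, addresses the splicing role of hnRNP L. It could be tested for 40 known junctions in 8 of the 9 genes, all but Padi4. None changed in usage (diffSpliceDGE of edgeR, adjusted p under 0.05), and none had an unadjusted p under 0.05. Over all genes 2 of 103333 junctions passed, or 0.00194%, and 2455 had an unadjusted p under 0.05. The smallest unadjusted p among the 40 was 0.0583, for Ltf junction 1, the first along the transcript. It had 8 and 25 reads in KO, against 14 and 13 reads in WT, where all Ltf junctions together had 336 and 491 reads in KO, against 82 and 204 reads in WT. Log2 differences in usage among the 40 ran from -2.32 to 1.69. How large a difference the test could have called for these 40 junctions was not tested.

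**Figure D4:**
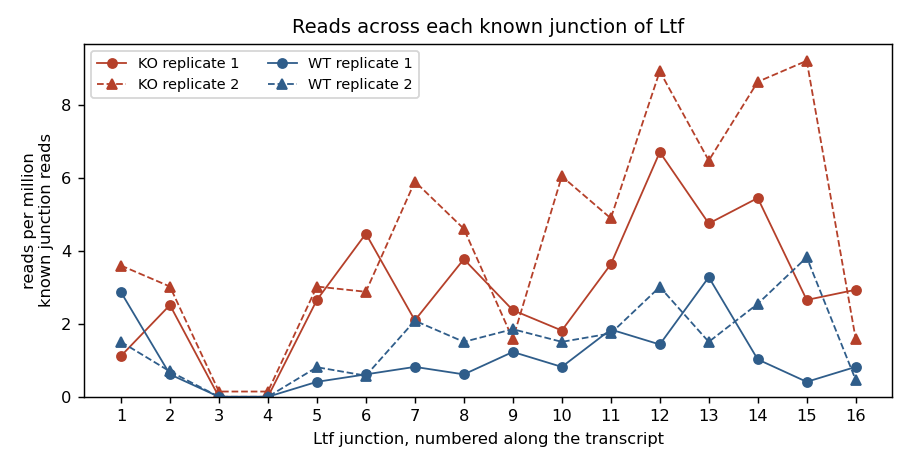
Reads per 1000000 known junction reads across the 16 known junctions of Ltf, numbered along the transcript, in the 2 KO and the 2 WT libraries. Both KO libraries lie above both WT libraries at 11 of the 16 junctions, and junctions 3 and 4 are at or near 0 in all 4 libraries.

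Other genes of the granulocyte programme were described from 5 lists with 66 tested genes. Of these, 22 were higher in KO, 2 were lower and 42 did not pass. Over all tested genes 11.4% were called higher and 9.44% lower, and the counts of each list stand beside these shares. Without KO replicate 1, WT replicate 1 or WT replicate 2 the higher genes numbered 11, 12 and 11. The lower genes numbered 5 without KO replicate 1, 1 without WT replicate 1 and none without KO replicate 2. Among 16 tested genes of other specific and gelatinase granule proteins, 6 were higher and none was lower (median log2 fold change 0.64). Itgb2, the beta 2 integrin subunit of leukocytes, was at 65.4 and 56.8 CPM in KO, against 19.7 and 24.9 CPM in WT (2.74-fold, edgeR adjusted p = 0.00446). Olfm4, olfactomedin 4 of a subset of specific granules, was at 94.3 and 83.3 CPM in KO, against 44.8 and 46.6 CPM in WT (1.94-fold, edgeR adjusted p = 0.00673). Fcnb, a ficolin of neutrophil granules, rose 1.83-fold (edgeR adjusted p = 0.0182), and it missed the threshold with WT replicate 1 left out (edgeR adjusted p = 0.0576). Without KO replicate 1 or WT replicate 1 the list had 3 higher genes.

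Of 19 tested genes of the surface and cytosol of late neutrophils, 8 were higher and 1 was lower (median 0.71). Alox5, the 5-lipoxygenase of leukotriene synthesis, had 6.31 and 7.06 CPM in KO, against 2.79 and 2.00 CPM in WT (2.82-fold, edgeR adjusted p = 0.0107). Anxa1, annexin A1, rose 1.89-fold and Retnlg, a resistin-like gene of neutrophils, 2.91-fold (edgeR adjusted p = 0.0108 and 0.0161). Retnlg did not pass without KO replicate 2 (edgeR adjusted p = 0.081). Without KO replicate 1 the higher genes numbered 3, and without KO replicate 2, WT replicate 1 or WT replicate 2 they numbered 4, 5 and 4.

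Of 9 tested primary granule genes, 2 were higher and none was lower (median 0.37). Mpo, myeloperoxidase, was at 365 and 325 CPM in KO, against 118 and 131 CPM in WT (2.77-fold, edgeR adjusted p = 0.00415). Elane, neutrophil elastase, had 68.9 and 41.1 CPM in KO, against 29.3 and 28.1 CPM in WT (1.91-fold, edgeR adjusted p = 0.0268; not passed without WT replicate 1 or WT replicate 2). The other serine protease genes of this list went both ways. Prtn3 and Ctsg had log2 fold changes of -0.33 and -0.50 and did not pass (edgeR adjusted p = 0.421 and 0.148). The groups of Ctsg did not overlap, with 39.2 and 24.8 CPM in KO, against 51.1 and 39.3 CPM in WT. Prss57 had a log2 fold change of 0.62, also with groups that did not overlap, and did not pass either (edgeR adjusted p = 0.125). Of the 9 tested genes, both KO libraries lay above both WT libraries for 5 and below for 2. With 1 library left out the log2 fold change of Prtn3 ran from -0.84 to 0.05. Without WT replicate 1 or WT replicate 2 only 1 primary granule gene was higher, while 3 were lower without KO replicate 1 and 1 was lower without WT replicate 2.

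Among 11 granulocyte transcription factors, 2 were higher (median 0.06), beside 11.4% of all tested genes. Cebpa, which starts the granulocyte programme, was at 80.5 and 73.6 CPM in KO, against 48.2 and 37.2 CPM in WT (edgeR adjusted p = 0.0112). Gfi1, a repressor needed for neutrophil maturation, rose 1.67-fold (edgeR adjusted p = 0.0461), and its call was lost whichever library was left out. Without KO replicate 1, WT replicate 1 or WT replicate 2, 1 factor was higher. Cebpe, the factor of secondary granules, had 14.4 and 8.33 CPM in KO, against 7.43 and 5.99 CPM in WT. Its groups did not overlap and it did not pass (log2 fold change 0.77, edgeR adjusted p = 0.0839). Of 11 genes of granulocyte cytokine signalling, 4 were higher and 1 lower. Csf2rb2, a receptor subunit of the interleukin 3 family, rose 2.21-fold (edgeR adjusted p = 0.0076), while Jak2, the kinase of several cytokine receptors, fell to 0.637 of WT (edgeR adjusted p = 0.0152; not passed without KO replicate 2 or WT replicate 2). The other 3 higher genes, Cxcl12, Csf2rb and Stat3, rose 1.33-fold to 1.57-fold. With 1 library left out, the call of Stat3 was lost in all 4 fits, that of Csf2rb in 3 and that of Cxcl12 in 2. Without KO replicate 1, WT replicate 1 or WT replicate 2 the higher genes of this list numbered 2, 2 and 1.

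**Figure D5:**
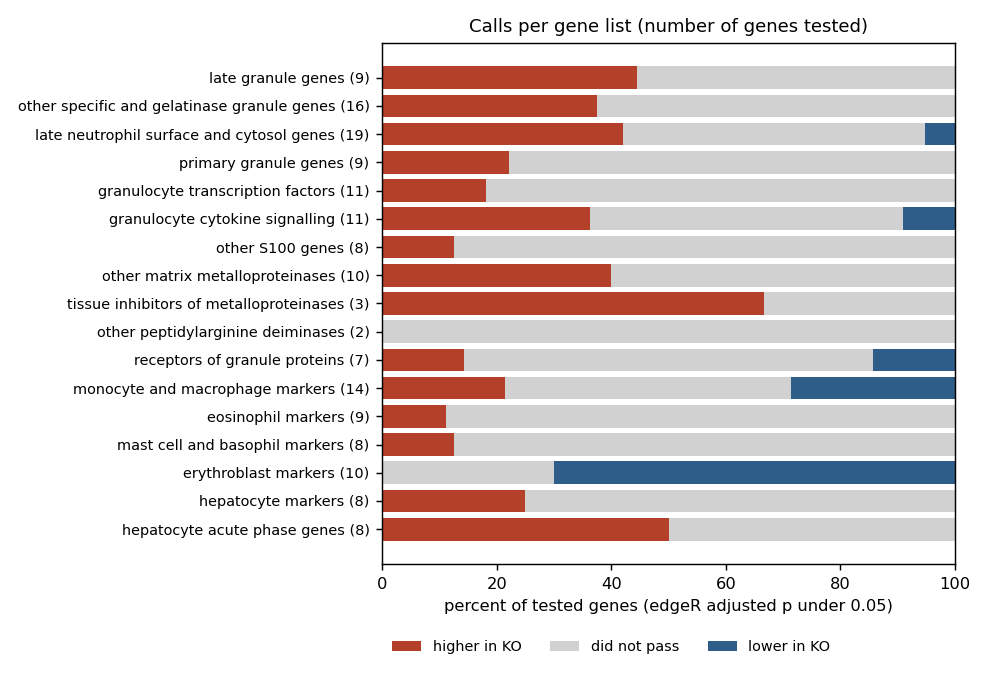
Percent of the tested genes of each list that were higher in KO, did not pass, or were lower in KO (edgeR adjusted p under 0.05), with the number tested in brackets. The late granule genes have 4 of 9 higher and none lower, and erythroblast markers have 7 of 10 lower.

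Relatives of the 9 genes were described in the same way. Of 8 tested other S100 genes 1 was higher, a share near the 11.4% of all tested genes. It was S100a16 (1.44-fold, edgeR adjusted p = 0.0410), a call lost without KO replicate 2, WT replicate 1 or WT replicate 2. Of 10 tested other matrix metalloproteinases, 4 were higher and none lower. Mmp14, a membrane-bound enzyme of stromal and endothelial cells, was at 96.4 and 110.1 CPM in KO, against 42.0 and 46.7 CPM in WT (2.33-fold, edgeR adjusted p = 0.00446), and Mmp19 rose 1.92-fold (edgeR adjusted p = 0.0108). The calls of Mmp2 and Mmp15 were lost in at least 3 of the 4 fits with 1 library left out, and the higher genes numbered 2 without KO replicate 2, WT replicate 1 or WT replicate 2. Of the metalloproteinase inhibitors, Timp3 had 83.8 and 89.9 CPM in KO, against 31.9 and 36.6 CPM in WT (2.53-fold, edgeR adjusted p = 0.00415), and Timp2 rose 1.57-fold. Timp2 passed in 1 of those 4 fits, the one without KO replicate 1. The 2 tested relatives of Padi4, Padi2 and Padi3, did not pass (edgeR adjusted p = 0.144 and 0.515).

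Among 7 receptors of granule proteins, 1 was higher and 1 lower, beside 11.4% and 9.44% of all tested genes. Lrp1, a scavenger receptor that takes up lactoferrin, was higher in KO (1.79-fold, edgeR adjusted p = 0.0076). Emb, embigin, a receptor of S100A8, was lower, at 39.9 and 32.2 CPM in KO against 56.6 and 46.5 CPM in WT (edgeR adjusted p = 0.0490), a call kept in 1 of the 4 fits with a library left out. Tlr4, the receptor of S100A8 and S100A9 on myeloid cells, had 13.95 and 12.4 CPM in KO, against 18.7 and 15.1 CPM in WT, and did not pass (edgeR adjusted p = 0.160).

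Markers of other cells were set beside the shares over all tested genes, 11.4% called higher in KO and 9.44% lower. Of 10 erythroblast markers, 7 were lower in KO (2 to 3 without KO replicate 2, WT replicate 1 or WT replicate 2), with a summed level of 24095 and 18000.4 CPM in KO, against 40124 and 36524 CPM in WT. Of 8 hepatocyte markers, 2 were higher, with sums of 78394 and 64607 CPM in KO, against 51349 and 37457 CPM in WT. Without WT replicate 2 none was higher, and without KO replicate 1 or KO replicate 2 there was 1. Of 8 tested hepatocyte acute phase genes, 4 were higher, and 1 or none without KO replicate 1 or WT replicate 2, with sums of 2609 and 1424 CPM in KO, against 1329.8 and 822 CPM in WT. Saa1 had 1 read in WT replicate 2, Saa2 2 reads in KO replicate 2 and Orm1 2 reads in KO replicate 1. These genes had 0 reads in every other library and Orm2 had 0 reads in all 4, and they were not tested. The median log2 fold change was 0.65 for hepatocyte markers and 0.80 for tested acute phase genes, beside 0.80 for the 9 late granule genes. Both KO libraries lay above both WT libraries for 6 of 8 hepatocyte markers and 7 of 8 acute phase genes, and below for none. For erythroblast markers the median was -0.75, and both KO libraries lay below both WT libraries for all 10. The part of hepatocyte RNA in the level of Lcn2 was not tested.

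Of 14 monocyte and macrophage markers, 3 were higher and 4 lower (none higher without WT replicate 2, 1 higher and 2 lower without KO replicate 2, and 2 higher and 2 lower without WT replicate 1), with sums of 564 and 483 CPM in KO, against 631 and 502 CPM in WT. No marker of that list was at 0. Emr1, the F4/80 antigen, was at 46.4 and 41.0 CPM in KO, against 113 and 87.1 CPM in WT. Clec4f, a lectin of Kupffer cells, was at 1.46 and 0.741 CPM in KO, against 9.50 and 8.06 CPM in WT (edgeR adjusted p = 0.00538). Mertk, a receptor for the uptake of dying cells, rose 1.61-fold (edgeR adjusted p = 0.0181), a call kept in 1 of the 4 fits with a library left out. The other 2 higher markers were Siglec1 (2.28-fold) and Cd68 (2.13-fold), named after their values were seen. Of 9 eosinophil markers, 1 was higher, Epx, eosinophil peroxidase (4.58-fold, edgeR adjusted p = 0.00446), and without KO replicate 2 there were 3. Their sums were 329 and 235 CPM in KO, against 162 and 189.5 CPM in WT. Of 8 tested mast cell and basophil markers, 1 was higher, Hdc, histidine decarboxylase (2.31-fold, edgeR adjusted p = 0.0091; 2 were higher without WT replicate 1). Their sums were 97.4 and 65.2 CPM in KO, against 45.3 and 36.5 CPM in WT, and Mcpt4 and Tpsab1 were at 0 reads in at least 1 library. The shares of eosinophil markers and of mast cell and basophil markers called higher were near the 11.4% of all tested genes. Their median log2 fold changes were 0.52 and 0.37, against 0.02 for all tested genes and -0.04 for monocyte and macrophage markers. Both KO libraries lay above both WT libraries for 6 of 9 eosinophil markers and 2 of 8 mast cell and basophil markers, and below for none. The part of monocytes, macrophages, eosinophils, mast cells and basophils in the late granule genes was not tested.

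The genes with the most similar pattern were sought by the root mean square distance between a gene's log2 CPM, centred over the 4 libraries, and the median centred profile of the 9 genes. That profile was 0.50 and 0.29 in KO, against -0.14 and -0.61 in WT. The 5 nearest genes were Slc2a2, Cldn1, Agtr1a, Trib3 and Fads6, at distances of 0.0250 to 0.0347 on the log2 scale. The 9 genes themselves were at 0.0895, for Padi4, to 0.897, for Mmp9. Those 5 genes were picked for the smallest distances among the many tested genes. That they lay nearer than the 9 follows from the search and is not a result. Slc2a2, a glucose transporter of hepatocytes, had 109 and 93.6 CPM in KO, against 67.2 and 50.7 CPM in WT. The summed hepatocyte markers had the same order of the 4 libraries. So did the sums of several other lists, among them other specific and gelatinase granule genes, late neutrophil genes and primary granule genes. This is a description over 4 libraries, with no test.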

How the data were processed

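RNA of fetal liver cells was depleted of ribosomal RNA, cut with RNase III, size-selected at 150 to 300 bp and amplified for 12 PCR cycles, per the labels' protocols. The 4 libraries were sequenced on 2 slides, with no label saying which of them shared one. For each library the authors deposited raw read counts per RefSeq transcript and per splice junction. Per the file headers, reads were counted from their primary alignment at a minimum mapping quality of 10, and the deposited RPKM values rest on the mapped reads of the library. RPKM recomputed from the counts matched in 100% of rows. The sources used here name no aligner and no genome build; coordinates are printed as deposited, and strand-specific counting is not stated.

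Each gene was represented by its transcript with the largest sum of reads. Counts were tested in R 4.3.3 with edgeR 4.0.16 (glmQLFit and glmQLFTest, its quasi-likelihood test), TMM scaling, filterByExpr and Benjamini-Hochberg adjustment over 15028 genes. Junction usage was tested with diffSpliceDGE on known junctions with at least 10 reads, in genes with at least 2 of them. The fits were tested on simulated data. Alternatives used DESeq2 1.42.0, limma voom 3.58.1, other scaling and filters, and fits without each library. An exact two-sided permutation test of 2 libraries against 2 cannot give a p below 0.333. The labels do not say that the samples of a group came from separate animals. The 2 KO libraries differed in sex, with 5 and 2839 reads of Ddx3y in replicates 1 and 2, so they were not repeats of 1 animal. For the 2 WT libraries this is not known. The p-values cover the spread between the 4 libraries, which may be technical within WT. The genes and lists were chosen with earlier results of these data known. Genes described in the text came from the 9 genes, Hnrnpl, 5 genes of similar pattern and the 3 genes with the smallest p of each list. Where 5 or fewer genes of a list passed, all of those passing were taken. Prtn3, Ctsg, Prss57, Siglec1, Cd68, Tlr4, Ddx3y and Actc1 were added after their values were seen. Of the listed symbols, Ly6g matched no gene. The values of 1 listed gene are not reported here.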

Additional observations from a re-analysis of the deposited data

How the results depend on the processing

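The count of 4 higher genes among the 9 was 4 to 6 with DESeq2, limma voom, RLE scaling, no scaling or summed transcripts, and 3 to 6 with 1 library left out. It was 7 without the filter on low counts. None of the 9 was lower under any of the 11 alternatives, and none of their 99 fold changes changed direction. Of these, 1 call was lost and 13 were gained. Mmp8 was gained with DESeq2, limma voom, no scaling and no filter. Over all genes, 3130 genes passed, and 1022 (KO replicate 2 left out), 1105 (WT replicate 2), 1616 (WT replicate 1) and 2492 (KO replicate 1) with 1 library fewer. Without scaling the median log2 fold change of all genes was 0.11, with 2380 genes higher and 952 lower, in place of 1711 and 1419. The higher genes of the 5 granulocyte lists together numbered 11 to 21 with 1 library left out, and the lower ones 0 to 5, with 5 lower without the filter. Junction reads called 3 of the 9 genes with DESeq2 and 3 to 7 with 1 library left out. Over all genes 4 junctions passed in usage with likelihood ratio fits, an alternative chosen after seeing the data. Directions reversed for Prtn3 (-0.84 to 0.05 with 1 library left out), for the Timp1 log2 fold change (-0.25 without KO replicate 1, and up to 0.75 without another library) and for the Camp junction reads log2 fold change (-0.072 without KO replicate 1, and up to 1.00 without another library). The causes were not tested.

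The deposited files carry a number that a KO and a WT library share, which the labels do not explain. With it as a replicate block, 7 of the 9 genes and 4341 of all genes passed, junction reads called 6 of the 9, and 4 genes of the granulocyte lists were lower. The differences KO replicate 1 minus 2 and WT replicate 1 minus 2 correlated at 0.137 across 15028 genes, which are not independent replicates. This correlation cannot settle whether the numbers mark pairs, and the block was used only as an alternative. Depth limits Padi4, with 31 to 64 reads, and the junctions of Mmp9, Mmp8 and Padi4.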

Other observations

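Ltf junctions 3 and 4 had 0 and 1 reads each in KO replicates 1 and 2 and 0 in both WT libraries, while junctions 2 and 5 beside them had 18 to 21 reads in KO and 2 to 7 reads in WT. A junction of Ltf marked as putative, between positions 110923511 and 110929834 of chromosome 9 in the coordinates of the files, had 8 and 5 reads in KO, against 1 and 12 reads in WT. It runs from the first position of known junction 2 to the last position of known junction 9, and so spans all junctions between them. It held 26 of the 30 reads on putative junctions of Ltf. None of the other 8 genes had more than 2 reads on putative junctions.

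Hamp, hepcidin, an iron-regulating hormone of hepatocytes, had 10.7 and 2.09 CPM in KO, against 1.05 and 0.162 CPM in WT (edgeR adjusted p = 0.0364). Itih4, a plasma protein of the acute phase, had 610.0 and 201 CPM in KO, against 122 and 103 CPM in WT (edgeR adjusted p = 0.0263). KO replicate 1 was the highest library for both, as for Lcn2, S100a8, S100a9 and Camp. Calls were lost in 2 of the 4 fits with a library left out for Hamp and in 1 for Itih4.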
